A study of Mus musculus with 18 samples.

Results

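Replication-dependent histone genes were followed in a mouse erythroleukemic line under lowered Spi1 and under a histone deacetylase inhibitor. They were chosen by gene symbol alone, as the rows named for the clustered H1, H2A, H2B, H3 and H4 genes, leaving out 1 name that marks a pseudogene. The rule found 62 genes among the 25628 rows of the first count table and 59 among the 26903 rows of the second, with 59 genes in both. In the first table they were 5 H1, 17 H2A, 17 H2B, 11 H3 and 12 H4 genes. The second table held 15 H2A and 16 H2B genes and the same numbers of the other classes; H2bc1, Hist1h2ao and Hist1h2ap were listed in the first table alone.

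The series holds 18 libraries of polyA RNA from TgSpi1 leukemic erythroid cells, 1 line in which the transgenic transcription factor SPI1 (PU.1) is overexpressed. All groups carry the doxycycline-inducible short hairpin RNA against Spi1 and grew with erythropoietin (EPO). Experiment 1 compared cells without doxycycline (Exp1_NoDox) with cells given it for 48 h (Exp1_Dox). Experiment 2 crossed doxycycline, absent or given for 48 h, with entinostat at 3 µM for 6 h or with its vehicle DMSO, in the groups NoDox_DMSO, Dox_DMSO, NoDox_Entinostat and Dox_Entinostat. Entinostat is a benzamide named in the labels as an inhibitor of the deacetylases HDAC1 and HDAC3. Each of the 6 groups has 3 libraries labelled as biological replicates. All come from 1 line and no group carries a control hairpin, so doxycycline itself and the loss of Spi1 cannot be told apart.

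Replication-dependent histone genes supply the core histones and the linker histone H1 that package newly copied DNA, and their messages accumulate during S phase. These messages usually carry no poly(A) tail. They end just after a short stem-loop that the protein SLBP binds, and the U7 small nuclear ribonucleoprotein guides the cut. A few of the genes, among them those for H1.2 and some H2B proteins, are known to be also made as polyadenylated messages, most of all in cells that leave the cell cycle. The libraries were made from polyA RNA, so a value here is the level of histone transcripts that such a library captures, not the level of all histone messages. In bulk RNA, a change in the number of cells making a message and a change in the amount per cell cannot be told apart.

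The stem-loop is printed first because it is the element that decides how such a message ends. In annotated transcripts of GENCODE release M21 on mm10, 40 members held a 16-base stem-loop between 22 and 59 bases after the stop codon, in 8 forms. Capitals mark the 4-base loop between the arms of the stem, written 5′ to 3′.
H1f2, H1f3, H2ac6, H2bc6, H3c4 and 17 others: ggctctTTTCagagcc
H4c3, H4c4, H4c6, H4c8, Hist1h4m and Hist1h4n: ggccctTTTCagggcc
H2bc3, H2bc12, H3c3, H3c6 and H3c7: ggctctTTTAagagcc
H4c9 and H4c14: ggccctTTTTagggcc
H4c2 and H4c11: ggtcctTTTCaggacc
H3c8: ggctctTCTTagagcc
H4c1: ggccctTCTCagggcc
H2ac20: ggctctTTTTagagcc
The first form served genes of H1, H2A, H2B and H3, while H4 genes had stems that no other class had. The stem was the same in every H1, H2A, H2B and H3 gene that held a match, the H4 genes had 2 stems, and the loop varied in 1 or 2 of its bases.

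Promoters were read from RefSeq (GRCm38.p6), which held 49 start sites of 48 members, over the 250 bases before each start. A CCAAT box, the site of the factor NF-Y (CCAAT or ATTGG), was in 85.71% of them, against 33.85% of all 32851 promoters of that table. It was in all promoters of H1, H2A and H2B genes and in 33.33% of those of H4 genes. A TATA box (TATAAA or TTTATA) was in 48.98%, against 12.37% of all promoters. The H1 box (AAACACA or TGTGTTT), an element known from linker histone promoters, was in 80% of 5 H1 promoters and in 6.25% of all promoters. The letters TTTCGCGC or GCGCGAAA, a site for E2F factors, were in 10.2% against 0.26%. The 3 upstream windows below belong to the H1 genes with the highest level and with the largest response, and to the gap between H2ac6 and H2bc4, which are read away from each other and share it. Capitals mark matches to the H1 box, the CCAAT box and the TATA box on either strand.
H1f2, chr13:23738557-23738806, plus strand: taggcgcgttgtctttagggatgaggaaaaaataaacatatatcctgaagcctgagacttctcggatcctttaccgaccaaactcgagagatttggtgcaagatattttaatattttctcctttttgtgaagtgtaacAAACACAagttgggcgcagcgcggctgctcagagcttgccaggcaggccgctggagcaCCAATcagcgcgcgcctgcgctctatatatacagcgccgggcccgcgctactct
H1f3, chr13:23554782-23555031, plus strand: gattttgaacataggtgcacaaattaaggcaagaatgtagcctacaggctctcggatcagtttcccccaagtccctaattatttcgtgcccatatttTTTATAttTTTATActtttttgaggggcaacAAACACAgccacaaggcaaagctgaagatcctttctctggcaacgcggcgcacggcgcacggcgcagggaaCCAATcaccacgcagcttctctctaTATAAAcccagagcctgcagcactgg
H2ac6, chr13:23683960-23684209, minus strand: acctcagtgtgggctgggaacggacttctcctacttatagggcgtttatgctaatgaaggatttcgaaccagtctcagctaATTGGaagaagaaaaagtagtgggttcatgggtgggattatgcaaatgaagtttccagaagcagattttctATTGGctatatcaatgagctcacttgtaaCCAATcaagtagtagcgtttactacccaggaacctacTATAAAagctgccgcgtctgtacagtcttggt
The H1f3 window precedes the RefSeq start and lies inside the longer GENCODE model of the gene, which begins at 23553262. Both H1 windows hold the H1 box upstream of a CCAAT box. The H2ac6 window holds CCAAT boxes in both orientations. A match describes these letters and no binding was measured.

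The members lie in 3 stretches of the mouse genome (mm10). A first stretch of chromosome 13, from 21715763 to 22043676, holds 24 of them, and a second, from 23531050 to 23934851, holds 30. The remaining 8 lie on chromosome 3 between 96219865 and 96270132. Copies within a class are close in sequence: the median identity of a coding sequence to its nearest copy was 84.23% for H1, 98.73% for H2A, 98.43% for H2B, 98.78% for H3 and 97.12% for H4. The H1 genes are therefore the best separated, while reads of core histone genes may be split between copies and their single values are uncertain. The kit does not mark strand, and every H2A model overlaps an unnamed gene on the opposite strand. H2bc18, H3c13 and H4c2 overlap a gene on the opposite strand too. How reads in such overlaps were counted is not given. The H2A levels, sums and shares below, and the pairs of H2A and H2B genes, carry this doubt. H1f4 overlaps the H2bc6 model on the same strand. H2ac14 is annotated as a pseudogene with no coding part.

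Of the members described most, H1f2 lies on chromosome 13 at 23738808 to 23740367, plus strand, and H1f3 at 23553262 to 23560686, plus strand. H2ac6 (23681467 to 23683948, minus strand) and H2bc4 (23684199 to 23692908, plus strand) are neighbours there. H3c4 lies at 23575763 to 23577011, plus strand, H4c9 at 22040636 to 22041362, minus strand, and H4c12 at 21750194 to 21750505, minus strand. H2bc21 lies on chromosome 3 at 96221119 to 96223738, plus strand.

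Library totals ran from 82.7 to 114 M counts in experiment 1 and from 43.1 to 48.9 M in experiment 2. The target of the hairpin, Spi1, stood at 379 to 459 CPM (counts per M after TMM scaling) in Exp1_NoDox and at 125 to 133 in Exp1_Dox. It stood at 200 to 259 CPM in NoDox_DMSO and 59.5 to 126 in Dox_DMSO, and at 221 to 482 in NoDox_Entinostat and 98.5 to 162 in Dox_Entinostat. A pair of libraries stood apart: the first Dox_DMSO and the first NoDox_Entinostat libraries deviated from their groups together (correlation across genes 0.78). Counts of members called in experiment 2 are therefore also given without both. Sums, shares and most single fold changes are given with both only. Summed erythroid markers ran from 3124 to 6891 CPM. Tfrc alone reached 4914 CPM in experiment 1 and 4161 in experiment 2, while Kit reached 3.61 and 11.2. With entinostat 3 of the 11 markers rose and 4 fell without doxycycline, where 30.3% and 16.9% of all genes did. With doxycycline 3 rose and 5 fell, where 33.9% and 29.9% of all genes did. Of 8 granulocyte and monocyte markers 6 were listed in experiment 2. They summed to 2.97 to 3.35 CPM in NoDox_DMSO and 8.87 to 13.9 in NoDox_Entinostat. In any library of experiment 2 Cd68 reached 10.9 CPM, Prtn3 3.21, Mpo 0.308, Csf1r 0.295 and Adgre1 0.114, with Elane at 3 counts at most. The 3 mast cell markers summed to 0.829 to 2.74 CPM in NoDox_DMSO and 10.2 to 35.3 in NoDox_Entinostat, most of it Ms4a2. Cpa3 reached 4.58 CPM in experiment 2, and Mcpt8 was at 1 count at most. The markers of T cells, B cells and stroma reached at most 1.68, 0.311 and 2.91 CPM, also with entinostat. Their mean sums were 0.0449, 0.0150 and 0.147 CPM in NoDox_DMSO and 1.04, 0.182 and 2.05 in NoDox_Entinostat. The part of other cells in the histone values was not tested.

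Few members carried most of the captured histone RNA. In untreated cells H1f2 led: it encodes linker histone H1.2, and is known to be made also with a poly(A) tail. Its level in NoDox_DMSO was 66.6, 84.5 and 95.3 CPM. H2bc4, an H2B gene known for polyadenylated messages, followed at 29.2, 25.6 and 38.9 CPM, and the H4 gene H4c9 at 19.7, 20.9 and 22.8 CPM. H2bc21, an H2B gene of chromosome 3 that also makes polyadenylated messages, stood at 13.9, 11.9 and 13.7 CPM. No other member had a group mean above 5 CPM in those libraries. Per kb of exon the order was H1f2 (mean 52.6), H4c9 (29.1), H2bc4 (27.0), H4c12 (5.07), H2bc21 (5.02) and H3c8 (2.66), which moves the short H4c12 up.

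In each table, 45 members passed the filter on low counts. The 14 untested members of experiment 2 reached at most 0.341 CPM, or 15 counts, in any library, and the 17 of experiment 1 at most 0.172 CPM. They include 8 H2A genes other than Hist1h2an, from H2ac1 to H2ac21, and H2bc18, H3c10 and H3c13. Of the 45 tested in experiment 2, 27 pass the filter on the DMSO libraries alone. The other 18 entered the test through the entinostat libraries, so counts that include them are tilted towards members that are high there; 3 are H2A, 4 H2B, 6 H3 and 5 H4 genes and none is an H1 gene.

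**Figure D1:**
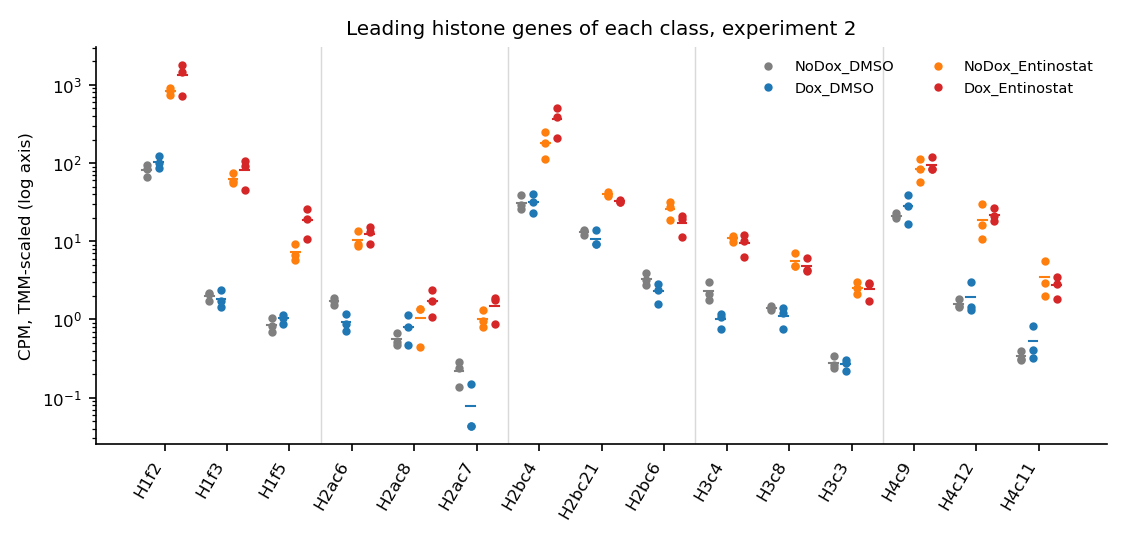
Level of the 3 members of each class with the highest mean, in CPM on a log axis, in the 4 groups of experiment 2. Points are libraries and short lines are group means; H1f2 lies between 66.6 and 124 CPM without entinostat and between 728 and 1793 with it.

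With entinostat the captured histone RNA of untreated cells rose from a summed 173 ± 23.2 CPM (SD, n = 3) to 1354 ± 101, a ratio of 7.83. In cells with doxycycline it rose from 197 ± 24.4 to 2071 ± 779 CPM, a ratio of 10.5. The sums in DMSO ran from 153 to 213 CPM and those in entinostat from 1210 to 2726, so the groups did not overlap. H1 genes showed the largest ratio of class totals, 10.7 without doxycycline and 13.3 with it. Most of the H1 total was H1f2, on average 82.1 of 86.0 CPM in NoDox_DMSO and 837 of 922 in NoDox_Entinostat. With doxycycline H1f2 made up 104 of 108 CPM in DMSO and 1327 of 1443 in entinostat. Without doxycycline the ratios were 4.80 for H2A, 5.12 for H2B, 4.89 for H3 and 4.66 for H4. With it they were 7.55, 9.10, 7.13 and 3.99 in the same order. No test was made on sums.

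The share of H1 among histone counts thus stood higher with entinostat. Without doxycycline it was 45.8, 53.1 and 49.9% in the DMSO libraries and 60.2, 74.8 and 70.1% in the entinostat libraries. With doxycycline it was 43.7, 62.8 and 59.7% in DMSO and 65.5, 70.9 and 70.6% in entinostat. The groups did not overlap in either arm. The H2B share without doxycycline went from 31.3 ± 3.15% to 20.3 ± 4.33% (SD, n = 3) and the H4 share from 14.4 ± 0.884% to 8.46 ± 2.70%.

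**Figure D2:**
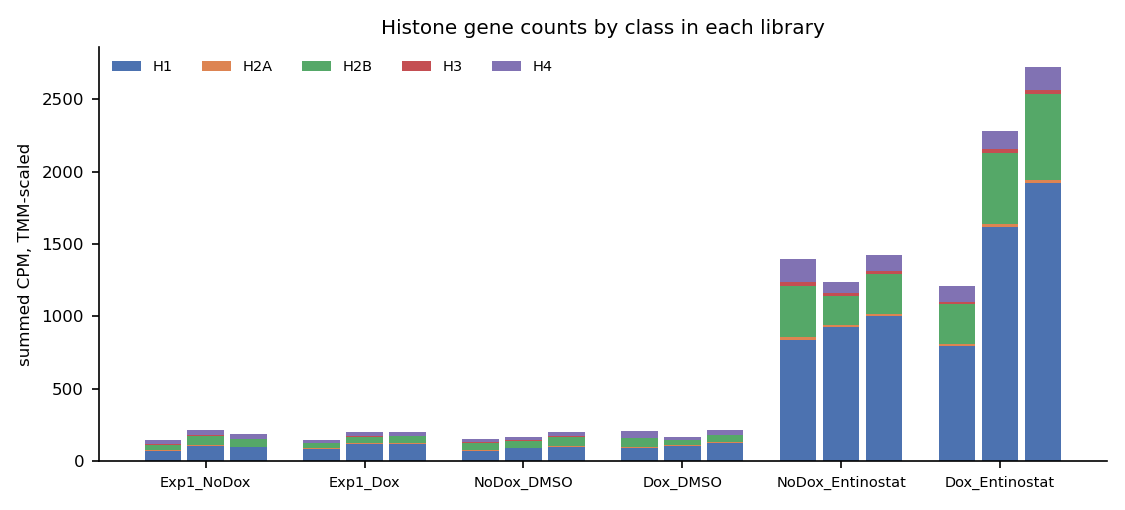
Summed CPM of all listed members in each library, as bars from 0 divided by histone class, with the 3 libraries of a group side by side. The entinostat libraries reach 1210 to 2726 CPM and no other library of experiment 2 exceeds 213; the 2 experiments are scaled separately.

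Without doxycycline, 37 of the 45 tested members rose with entinostat and 0 fell, where 30.3% of all 15051 genes tested rose and 16.9% fell (edgeR quasi-likelihood test, Benjamini-Hochberg adjusted p under 0.05). The median log2 fold change of the 45 was 2.20, beside 0.07 over all genes. Among the 27 members tested without help from the entinostat libraries, 25 rose, with a median of 2.54. All libraries with entinostat lay above all without it for 37 members, and below for H2bc12, where 33.8% and 26.4% of all genes did so. More than 2-fold increases were estimated for 39 of the 45, against 27.3% of all genes, and more than 8-fold increases for 13, against 10.4%. Counts over the 45 include the 18 members tested only through the entinostat libraries. That entry favours rises, so these members add no support. Without the pair of libraries that stood apart, 33 of 46 rose, where 36.2% of all genes did.

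With doxycycline, 42 of 45 rose and 0 fell, where 33.9% of all genes rose and 29.9% fell. The median log2 fold change was 2.61, beside 0.14 over all genes. The libraries did not overlap for 41 members, all higher, where 35.4% of all genes lay higher and 30.5% lower without overlap. Among the 27, 26 rose with a median of 2.92. Increases over 2-fold were estimated for 44 members (30.4% of all genes) and over 8-fold for 18 (11.6%). Counts over the 45 are tilted towards rises in this arm too, by members tested only through the entinostat libraries. Without both libraries 45 of 46 rose, where 43.1% of all genes did.

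Short transcripts as a whole stood higher in the doxycycline and entinostat group, which bears on genes as short as these. Genes outside the histone set with under 1 kb of exon had a median log2 fold change of 1.03 with doxycycline and 0.19 without it, and those over 4 kb had -0.31 and -0.03. The 13 tested members longer than 1 kb had medians of 3.22 and 2.54, and 13 and 11 of them rose. With the trend over gene length removed, an alternative chosen after seeing the data, 37 members rose without doxycycline (median 1.81) and 32 with it (median 1.74). Of all genes, 28.7% and 30% rose there.

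Among the linker histones, all 5 H1 genes rose in both arms. H1f3, which encodes H1.3, showed the largest log2 fold change of the 45 tested members in both arms. Its levels were 1.73, 2.11 and 2.16 CPM in NoDox_DMSO and 73.6, 59.0 and 55.9 in NoDox_Entinostat, and 1.74, 2.35 and 1.42 CPM in Dox_DMSO and 45.8, 105 and 91.9 in Dox_Entinostat. Every entinostat library lay far above every DMSO library. The log2 fold changes were 4.97 ± 0.32 (standard error, adjusted p = 4.26e-07) and 5.46 ± 0.33 (adjusted p = 2.01e-07), and 4.99 and 5.70 with the length trend removed.

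H1f2 gained the most in absolute terms. It stood at 744, 845 and 923 CPM in NoDox_Entinostat against the 66.6 to 95.3 CPM given above. With doxycycline it went from 87.2, 101 and 124 to 728, 1459 and 1793 CPM. The first Dox_Entinostat library was the lowest of its group but still above all DMSO libraries. The log2 fold changes were 3.35 ± 0.32 (adjusted p = 6.11e-06) and 3.67 ± 0.32 (adjusted p = 2.72e-06).

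The other H1 genes were low at rest. H1f1, the gene for H1.1, stood at 0.382 to 0.652 CPM in NoDox_DMSO and 5.67 to 7.09 in NoDox_Entinostat, a log2 fold change of 3.70 ± 0.41, and rose by 4.15 ± 0.41 with doxycycline. H1f4, for H1.4, rose by 3.90 ± 0.45 and 3.62 ± 0.44. H1f5, for H1.5, rose by 3.07 ± 0.33 (from 0.697 to 1.04 CPM to 5.72 to 9.31) and by 4.17 ± 0.34 (from 0.883 to 1.15 CPM to 10.7 to 25.8). The 5 genes lay apart in both arms with no overlap between groups.

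Of the 6 H2A genes tested, 5 rose without doxycycline (median 2.19) and 6 with it (median 3.18). Of those that pass on the DMSO libraries alone, 2 of 3 and 3 of 3 rose. H2ac6 was the most abundant. Its 3 libraries held 1.71, 1.54 and 1.88 CPM in NoDox_DMSO and 13.4, 8.81 and 9.34 in NoDox_Entinostat, a log2 fold change of 2.62 ± 0.26 (adjusted p = 9.01e-06). With doxycycline they held 1.18, 0.713 and 0.862 CPM in DMSO and 9.18, 15 and 13.2 in entinostat, a log2 fold change of 3.77 ± 0.28 (adjusted p = 8.42e-07). The groups did not overlap. H2ac7 rose by 2.20 ± 0.45 and 4.27 ± 0.52, from levels under 0.3 CPM. It was tested only through the entinostat libraries, so its rises add no support. H2ac8 was not called without doxycycline (0.91 ± 0.47, adjusted p = 0.128) and was just past the threshold with it (1.10 ± 0.45, adjusted p = 0.0483). Over the alternatives that second adjusted p ran from 0.0139 to 0.818, the highest with the length trend removed.

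Of 13 H2B genes tested, 10 rose without doxycycline (median 1.76) and 12 with it (median 2.46). Among the 9 that pass on the DMSO libraries alone, 8 rose in each arm. H2bc4 held 250, 112 and 180 CPM in NoDox_Entinostat, and went from 40.6, 22.7 and 31.7 in Dox_DMSO to 207, 392 and 499 in Dox_Entinostat. Every entinostat library exceeded every DMSO library, and the libraries of an entinostat group lay far from each other. The log2 fold changes were 2.54 ± 0.37 (adjusted p = 0.000129) and 3.53 ± 0.38 (adjusted p = 1.23e-05). H2bc21 rose less, to 42.5, 39.2 and 37.9 CPM without doxycycline, and from 14, 9.18 and 9.31 to 32, 33.8 and 31.8 CPM with it. Its log2 fold changes were 1.60 ± 0.18 (adjusted p = 1.72e-05) and 1.59 ± 0.18 (adjusted p = 1.42e-05). The replicates of H2bc21 lay close together except in Dox_DMSO, where the first library was the highest.

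H2bc8 showed the largest change among H2B genes, 3.26 ± 0.33 without doxycycline and 4.23 ± 0.35 with it. H2bc6 rose by 2.99 ± 0.31 and 2.92 ± 0.31. The H2B genes not called without doxycycline were H2bc7 (0.31 ± 0.50), H2bc12 (-0.66 ± 0.62) and H2bc13 (0.90 ± 0.72). H2bc7 was the 1 H2B gene not called with it (-0.68 ± 0.50, adjusted p = 0.243). All 3 were at or below 0.73 CPM in every library.

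Of 9 H3 genes tested, 7 rose without doxycycline (median 2.02) and 9 with it (median 2.61), but 6 of the 9 were tested only through the entinostat libraries. The 3 that pass on the DMSO libraries alone rose in both arms, with medians of 2.25 and 3.19. H3c4, the most abundant, held 1.78, 2.09 and 2.97 CPM in NoDox_DMSO and 11, 9.87 and 11.7 in NoDox_Entinostat, a log2 fold change of 2.25 ± 0.28 (adjusted p = 4.15e-05). With doxycycline it went from 1.08, 0.756 and 1.18 to 6.24, 12.1 and 9.93 CPM, a change of 3.22 ± 0.30 (adjusted p = 3.90e-06). The entinostat libraries lay above the DMSO libraries in both arms. H3c11 rose by 3.57 ± 0.45 and 4.28 ± 0.47 and H3c15 by 2.75 ± 0.50 and 4.26 ± 0.69, both from under 0.2 CPM. Both are among the 6 tested only through the entinostat libraries, so their rises add no support. H3c8 rose by 1.98 ± 0.27 and 2.12 ± 0.28. H3c1 and H3c7 were not called without doxycycline.

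Of 12 H4 genes tested, 10 rose in each arm, with medians of 2.66 without doxycycline and 1.87 with it. The 7 that pass on the DMSO libraries alone all rose in both arms, with medians of 2.47 and 1.96. H4c9 held 111, 56.8 and 84.1 CPM in NoDox_Entinostat, against 19.7 to 22.8 in NoDox_DMSO. It went from 38.6, 16.6 and 28.5 CPM in Dox_DMSO to 83.5, 83.6 and 120 in Dox_Entinostat. The groups did not overlap, and the log2 fold changes were 1.99 ± 0.30 (adjusted p = 0.000192) and 1.78 ± 0.30 (adjusted p = 0.000295). The short H4c12 rose more, from 1.44, 1.5 and 1.81 to 29.7, 10.7 and 16 CPM (3.57 ± 0.40, adjusted p = 2.07e-05), and by 3.52 ± 0.40 with doxycycline. Hist1h4m rose by 3.53 ± 0.57 and 4.52 ± 0.61 from under 0.1 CPM. Its test rests on entry through the entinostat libraries alone, so these rises add no support. H4c6 was called in neither arm (1.47 ± 0.74 and 1.60 ± 0.70), H4c14 not without doxycycline (0.74 ± 0.49) and H4c2 not with it (1.01 ± 0.66).

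**Figure D3:**
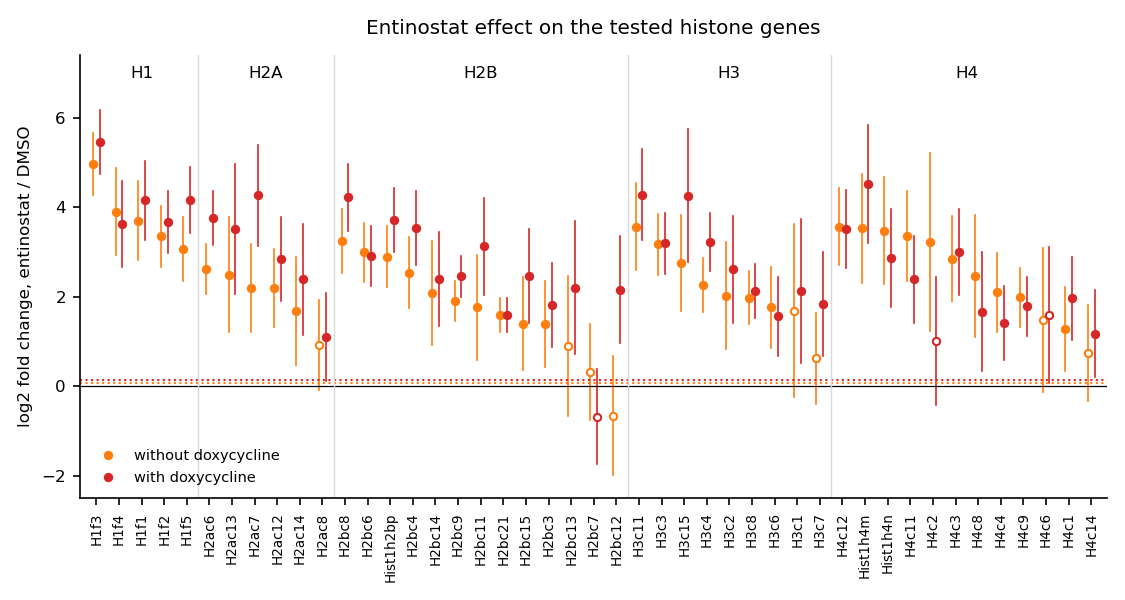
Log2 fold change of each of the 45 tested members with entinostat, without doxycycline and with it, ordered by class and size. Bars are 95% intervals, filled points passed the test, and dotted lines give the median of all genes, 0.07 and 0.14; all 5 H1 genes lie above 3 in both arms.

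The annotated ends of the messages were set beside these levels. By the model that runs farthest past the stop codon, for 18 members it runs 100 or more bases past the stem-loop, for 21 it stops within 100 bases of it, for 7 no stem-loop of the searched form was found in the model that runs farthest past the stop codon, and for 16 the model ends at the stop codon or within 2 bases of it, H2ac14 included, which has no coding part. Hist1h2bp is among the 7, although a shorter model of it holds a stem-loop and is counted with the 40 above. In NoDox_DMSO the 18 with a long run past the stem-loop held 69.4% of the histone counts and the 7 without a match, H2bc4 and H2bc21 among them, held 26.2%. Of the 21 that stop near the stem-loop 19 were listed in experiment 2 and held 2.27%, and of the last 16, 15 were listed and held 2.18%. H1f2 has 840 annotated bases after the stem-loop, H4c9 330, H3c4 752, H2ac6 2010 and H1f3 4884. H2bc4 has 742 bases after its stop codon in a spliced model and H2bc21 has 2192.

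In NoDox_Entinostat these 4 kinds of gene, in the same sequence, held 79.5, 16.9, 1.27 and 2.35% of histone counts. Among the 27 members that pass on the DMSO libraries alone, taken in that sequence, 13 of 14, 4 of 4, 4 of 5 and 4 of 4 rose without doxycycline, with median log2 fold changes of 2.74, 2.71, 1.98 and 2.38. With doxycycline 14, 4, 4 and 4 of them rose. Which transcript end was sequenced is not given by a count per gene.

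**Figure D4:**
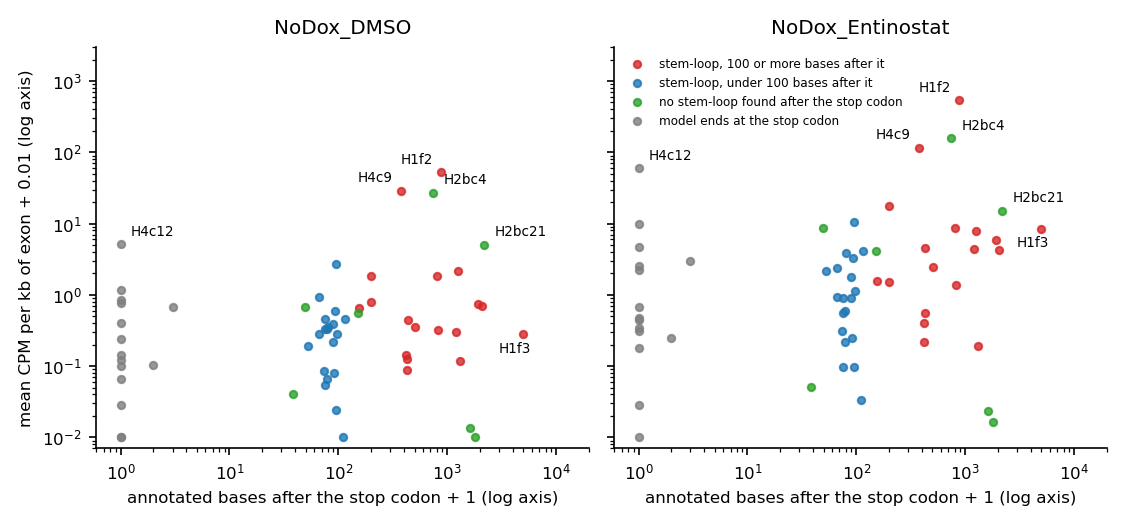
Mean level per kb of exon plus 0.01 against the annotated bases after the stop codon plus 1, both on log axes, for every listed member in NoDox_DMSO and NoDox_Entinostat, coloured by the annotated end. Among models that stop within 100 bases of the stem-loop H3c8 is the highest, at 2.66 and 10.5 CPM per kb, while H1f2 leads both panels at 52.6 and 537.

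RNAs that lack a poly(A) tail by nature, such as small nuclear and signal recognition RNAs, were counted as a gauge of how much such RNA the libraries held. Of 25 listed, 15 were found, and they summed to 12.97 to 20.3 CPM in NoDox_DMSO and 9.65 to 30.2 in NoDox_Entinostat, with 0 of 9 tested called. With doxycycline they went from 13.5 to 28.9 CPM in DMSO to 24.99 to 57.9 in entinostat, and 4 of 9 rose, where 33.9% of all genes and 47.7% of genes under 1 kb did. The part of this difference in the histone values of the Dox_Entinostat group was not tested.

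Position was set beside the response. Among the same 27 members, 7 of 7 in the first chromosome 13 stretch rose without doxycycline (median 2.89), 17 of 19 in the second (2.54) and 1 of 1 on chromosome 3 (1.60). With doxycycline 7, 18 and 1 rose. There were 13 pairs of an H2A and an H2B gene read away from each other with starts 176 to 306 bases apart. In the pair whose shared gap is printed above, with starts 251 bases apart, H2ac6 and H2bc4 changed by similar amounts (2.62 and 2.54 without doxycycline, 3.77 and 3.53 with it), although their mean levels in NoDox_DMSO were 1.71 and 31.2 CPM. H2ac14 and H2bc14, 236 bases apart, changed by 1.68 and 2.08 without doxycycline and by 2.39 and 2.39 with it. In other pairs the changes differed. Without doxycycline H2ac8 and H2bc8, 176 bases apart, changed by 0.91 and 3.26, and H2ac7 and H2bc7, 185 bases apart, by 2.20 and 0.31. H2ac7 and H2bc14 were tested only through the entinostat libraries. Not all of the 13 pairs had both genes tested. The differences within pairs were not tested, and copies of these genes share reads.

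The number of members called with doxycycline in experiment 1 depended on whether the pairs of same-numbered libraries entered the fit. Without them, 2 of 45 fell and 0 rose, where 8.36% of 13811 genes fell and 5.26% rose, so the count is no larger than the background (7 members had an unadjusted p under 0.05; DESeq2 called 3 lower). H3c4 went from 0.899, 1.35 and 1.25 CPM to 0.394, 0.488 and 0.699, a log2 fold change of -1.15 ± 0.27 (adjusted p = 0.0380). H2ac6 went from 0.383, 0.574 and 0.564 CPM to 0.197, 0.285 and 0.275, a change of -1.01 ± 0.25 (adjusted p = 0.0461). Neither pair of groups overlapped. Of the 45, 7 members lay lower without overlap and 1 higher, where 16.8% and 15.3% of all genes did. Neither gene was called when the second or the third Exp1_NoDox library, or the first or the second Exp1_Dox library, was left out, and 3 members fell without the first Exp1_NoDox library, where 6.49% of all genes did.

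Same-numbered libraries of experiment 1 deviated together. A fit that blocked on that number gave 12 members lower and 1 higher, where 24.7% of all genes fell and 26.1% rose. The count of falls is near the background, and that of rises is below it. H3c4 then stood at -1.16 ± 0.17, H2ac6 at -1.002 ± 0.193 and H2bc6 at -1.02 ± 0.13 (adjusted p = 0.000205). H2bc6 had gone from 3.27, 4.58 and 4.53 CPM to 1.61, 1.76 and 2.85, with no overlap, and missed the threshold without the block (adjusted p = 0.0562). H1f3 (-0.54 ± 0.15), H4c12 (-0.62 ± 0.11) and H4c8 (-0.88 ± 0.16) were among the others. H1f2 was the member that rose, by 0.28 ± 0.04 (adjusted p = 0.000447), from 68.6, 101 and 92.2 CPM to 85.1, 114.8 and 118; its groups overlapped, while each pair of libraries rose.

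Summed over all members the level differed by less than the spread between libraries: 182 ± 36.8 CPM in Exp1_NoDox and 184 ± 31.0 in Exp1_Dox (SD, n = 3). Its make-up differed. The H1 share was 49.2, 47.7 and 50.1% without doxycycline and 58.5, 58.1 and 58.6% with it, with no overlap between groups and little spread within them. This share follows H1f2, with 68.6 of 70.2 CPM of H1 in the first Exp1_NoDox library and 85.1 of 86.7 in the first Exp1_Dox library. With the block H1f3 stood at -0.54 ± 0.15, and H1f1, H1f4 and H1f5 were not called. The other classes had ratios of summed CPM between 0.736 for H3 and 0.895 for H2A. Within each of the 3 pairs of same-numbered libraries the H1 sum was higher with doxycycline and the H2A, H2B, H3 and H4 sums were lower.

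In the DMSO arm of experiment 2, 1 of 45 fell and 0 rose, where 5.53% of all genes fell and 3.77% rose (7 had an unadjusted p under 0.05). Neither count is larger than the background. The gene was H3c4, whose levels are given above, at -1.18 ± 0.29 (adjusted p = 0.0216); it was not called without the third NoDox_DMSO or the second Dox_DMSO library. H2ac6 stood at -0.90 ± 0.27 (adjusted p = 0.0580), again with no overlap between groups. Of the 45, 3 members lay lower without overlap and 1 higher, where 14.3% and 11.5% of all genes did. Without the first Dox_DMSO library 4 members fell, where 5.76% of all genes did, and without both libraries that stood apart 5 fell, where 13.9% of all genes did. The H3 class total was 4.73 ± 0.463 CPM without doxycycline and 3.05 ± 0.366 with it (SD, n = 3), a ratio of 0.646, and those groups did not overlap. The totals of the other classes overlapped, with ratios of 1.26 for H1, 0.782 for H2A, 0.923 for H2B and 1.33 for H4. The H1 share overlapped here too, unlike in experiment 1. It was 45.8, 53.1 and 49.9% without doxycycline and 43.7, 62.8 and 59.7% with it. H1f2 (0.34, 95% interval -0.29 to 0.97) and H2bc4 (0.02, -0.73 to 0.77) had intervals that span 0.

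In the entinostat arm, 4 of 45 rose with doxycycline and 0 fell, where 8.96% of all genes rose and 15.1% fell. The count of rises is near the background. Among the 27 that pass on the DMSO libraries alone, 1 rose. H1f5 rose by 1.35 ± 0.29 (adjusted p = 0.00881), from 9.31, 6.67 and 5.72 CPM to 10.7, 25.8 and 19. The H2B genes H2bc12 (2.38 ± 0.55, adjusted p = 0.0121), H2bc11 (1.89, adjusted p = 0.0139) and H2bc14 (1.32, adjusted p = 0.0466) were low, at 0.0548 to 0.609 CPM without doxycycline and 0.224 to 2.55 with it. These 3 were tested only through the entinostat libraries, where they are highest with doxycycline, so their calls add no support. The groups did not overlap for these 4. Of the 45, 5 members lay higher and 2 lower without overlap, where 18.3% and 19.4% of all genes did. All 4 are under 1 kb. Genes under 1 kb outside the histone set had a median of 0.69 and rose in 19.3% of cases. No member rose without the third NoDox_Entinostat library, 1 without the second and 10 without the first, where 1.47, 1.71 and 20.3% of all genes rose. Without the first Dox_Entinostat library 7 rose (6.75% of all genes), and without the second or the third 2 did (2.77 and 1.97%). In all, 15 rose without both libraries that stood apart, where 26.1% of all genes did. With the length trend removed 2 rose and 3 fell, where 10.3% and 14.4% of all genes did. H2bc4 stood at 1.02 ± 0.35 (adjusted p = 0.0514) and H3c4, low in the other comparisons, at -0.21 ± 0.26.

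**Figure D5:**
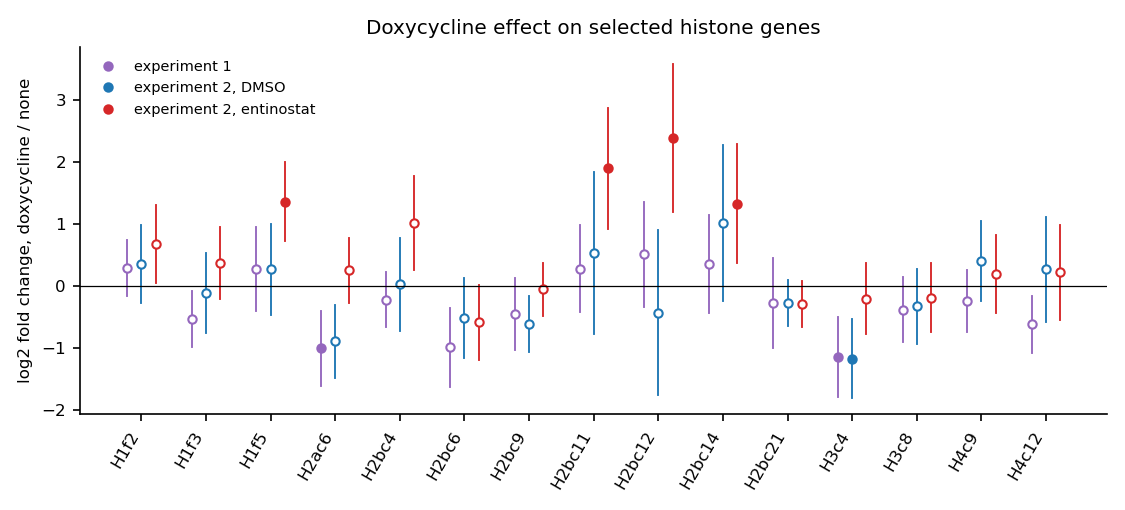
Log2 fold change with doxycycline of 15 members in experiment 1, in DMSO and in entinostat, with 95% intervals; filled points passed the test. H3c4 lies at -1.15 and -1.18 in the comparisons without entinostat and at -0.21 with it, and the filled H2B genes in entinostat lie between 1.32 and 2.38.

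Whether doxycycline changed the entinostat response was tested as an interaction, and 0 of 45 members passed in either direction, where 0.166% and 0.106% of all genes did (edgeR; 5 had an unadjusted p under 0.05, and DESeq2 called 0). Those 5 were H2bc12 (2.82 ± 0.83), H2ac7 (2.07 ± 0.71), H2ac6 (1.15 ± 0.36), H1f5 (1.09 ± 0.45) and H3c4 (0.97 ± 0.39), all positive. H2bc12 and H2ac7 were tested only through the entinostat libraries, where their mean is highest with doxycycline. A positive estimate is favoured by that entry, so these genes add no support. For H1f2 the estimate was 0.32 with a 95% interval of -0.57 to 1.21, for H1f3 0.49 (-0.38 to 1.35) and for H2bc4 0.997 (-0.069 to 2.06). These intervals are wide and do not show that the arms respond alike. Without both libraries that stood apart 12 of 46 members were called, all higher, where 21.5% of all genes were called higher and 30.0% lower. The count called higher is near that share. H2ac6 then stood at 1.57 ± 0.32 and H2bc4 at 1.52 ± 0.44. H2bc12 (3.41 ± 0.99) and H2ac7 were among the 12, with the limit given above. Without the first NoDox_Entinostat or the first Dox_DMSO library alone, 3 were called, all higher. There 5.98% and 6.52% of all genes were called higher, and 13.7% and 10.4% lower.

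Genes that make, process and remove histone messages were counted beside all genes tested, of which 30.3% rose and 16.9% fell with entinostat without doxycycline, and 33.9% rose and 29.9% fell with it. More genes of these lists fell than rose. Of 22 genes of histone gene transcription, 1 rose and 11 fell with entinostat without doxycycline, and 1 and 16 with it. Ccne1, the cyclin E that drives entry into S phase, changed by -1.27 ± 0.13 and -1.52 ± 0.13, and Cdc25a, the phosphatase that activates its kinase, by -1.55 ± 0.21 and -2.01 ± 0.21. Npat, the cyclin E target that activates histone genes, stood at -0.32 ± 0.19 (adjusted p = 0.193) without doxycycline and fell by 0.77 with it. Nfyb, a subunit of the CCAAT factor, fell by 0.74 and 1.18.

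Of 18 genes of 3′ processing, 1 rose and 6 fell, and with doxycycline 3 and 10. Slbp, the stem-loop binding protein, stood at 170 to 172 CPM in NoDox_DMSO and 146 to 154 in NoDox_Entinostat (-0.19 ± 0.15, adjusted p = 0.323), and at -0.35 ± 0.15 with doxycycline (adjusted p = 0.0586). Zfp473, which joins the U7 particle to the message, rose by 0.97 ± 0.19 and 1.15 ± 0.19. Lsm11, a protein of that particle, fell by 0.67 without doxycycline, the endonuclease Cpsf3 by 0.63, and its partner Cpsf2 by 1.11. Of 20 genes of histone mRNA decay, 0 rose and 9 fell, and with doxycycline 1 and 15, with the exosome nuclease Dis3 at -1.19 ± 0.19 and -1.37 ± 0.19.

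Of 47 S phase genes 0 rose and 19 fell without doxycycline, and 4 rose and 30 fell with it; Orc1, of the origin recognition complex, stood at -1.18 ± 0.18 without doxycycline. Their summed level was 9422 CPM in NoDox_DMSO and 6864 in NoDox_Entinostat. Of 10 cell cycle inhibitors 6 rose and 0 fell in each arm, with Cdkn1a, which encodes p21, at 2.76 ± 0.38 and 1.10 ± 0.36. Of 25 genes of G2 and mitosis 1 rose and 7 fell, and with doxycycline 0 and 13. Of 27 histone chaperones 0 rose and 5 fell without doxycycline, a share of falls near that of all genes (16.9%), and 0 and 20 with it, with Daxx, the chaperone of H3.3, at -0.75 ± 0.21 and -1.26 ± 0.21. In experiment 1 doxycycline went with 9 rises and 0 falls of the 47 S phase genes, where 5.26% of all genes rose and 8.36% fell, and with a rise of Slbp by 0.33 ± 0.07 (adjusted p = 0.0255).

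Genes of histone variants outside the clusters, most of which are made as polyadenylated messages, gave 3 rises and 0 falls of 9 tested without doxycycline, and 5 and 1 with it. The share of rises without doxycycline was near the 30.3% of all genes. H1f0, the linker histone known from cells that have stopped dividing, rose in both arms. It stood at 61.8, 65.6 and 71.3 CPM in NoDox_DMSO and 345, 393 and 370 in NoDox_Entinostat (2.48 ± 0.19, adjusted p = 1.28e-06), and at 34.3, 34.8 and 38.4 CPM in Dox_DMSO and 186, 258 and 291 in Dox_Entinostat (2.77 ± 0.19). It fell with doxycycline in DMSO (-0.89 ± 0.18, adjusted p = 0.00636) and in entinostat (-0.59 ± 0.18, adjusted p = 0.0331). H2ax, the variant marked at DNA breaks, whose message also exists in a stem-loop form, rose by 1.12 ± 0.18 and 0.94 ± 0.18. H2aw and H4f16, clustered-type histone genes whose current symbols the naming rule does not match, were listed too: H2aw rose by 2.95 ± 0.47 and 5.04 ± 0.52, and H4f16 stood at 0.69 ± 0.72 and 1.13 ± 0.61, not called.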

How the data were processed

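Per the labels' protocols, total RNA went into TruSeq RNA v2 libraries of polyA RNA. The authors deposited raw counts per gene, 1 table for each experiment. STAR, bcl2fastq 2.17.1.14, mm10 and DESeq2 are named in the submitters' processing notes; counter and annotation are not given in the sources used here. The table of experiment 1 holds no count under 1, and 3543 rows are at 1 in every library. Tests used edgeR 4.0.16 under R 4.3.3, separately for each table (TMM, filterByExpr, quasi-likelihood, group means), two-sided, adjusted by Benjamini-Hochberg over 13811 and 15051 genes at 0.05; scripts were tested on simulated data. DESeq2 1.42.0 was an alternative. Same-number libraries of experiment 1 correlated at 0.829, 0.724 and 0.313 in their deviations from group means, above the limit of 0.1 taken as pairing. Named genes were the 3 most abundant members of each class, up to 6 of the largest called rises and falls of each contrast, fixed genes, and the 3 smallest adjusted p-values of each list; a few others (H2bc7, H2bc13, H3c1, H3c7, H4c2, H4c6, H4c14 and the markers among them) were named after their values were seen. Members and lists were chosen with earlier results of these data known. Intervals at 95% use the degrees of freedom of each gene's test. Fold changes are ± standard error, with 3 libraries in each group.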

Additional observations from a re-analysis of the deposited data

How the results depend on the processing

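The counts of histone genes that rose with entinostat stayed within 1.5 times under every setting run, at 32 to 39 without doxycycline and 38 to 44 with it when libraries were left out singly. With libraries left out singly, 26 to 32.9% and 28.3 to 39.1% of all genes rose. Library size alone shifted the median of all genes without doxycycline from 0.07 to 0.32 and left 37 members higher. There 36% of all genes rose. The length trend removed, chosen after seeing the data, left 1 member lower with doxycycline (H2bc7), and also with the replicate block added (1). In those settings 34.4 and 37.2% of all genes fell. In experiment 1 the 2 falls became 0 with no filter on low counts, 0 when 3 libraries had to reach 1 CPM (9 members tested), 12 with the replicate block and 12 with block and length trend; with the block 1 member rose, and also with block and length trend (1). In those settings in turn 2.97, 9.28, 24.7 and 25.4% of all genes fell. With the block 26.1% rose, and 27.9% with block and length trend. Left-out libraries gave 0 to 3 falls, where 3.44 to 6.75% of all genes fell. In DMSO the 1 fall became 2 with library size alone, 2 with DESeq2, 2 with the replicate block, 5 without both libraries that stood apart, 2 with the length trend removed and 3 with block and length trend, and 0 to 4 with libraries left out; 1 rose with the length trend removed and 2 with the block as well. In those DMSO settings in turn 5.49, 3.87, 7.61, 13.9, 6.38 and 8.61% of all genes fell, and 3.43 to 6.39% with libraries left out. With the length trend removed 5.2% rose there, and 7.85% with the block as well. In entinostat the 4 rises became 1 with the filter of 1 CPM, 7 with the replicate block, 15 without both libraries and 2 with the length trend removed, and 0 to 10 with libraries left out. In turn 9.72, 17.9, 26.1 and 10.3% of all genes rose, and 1.47 to 20.3% with libraries left out. Falls there, 0 in the main test, became 1 with no filter, 2 without both libraries, 3 with the length trend removed and 8 with block and length trend, and 0 to 1 with libraries left out. In turn 12.4, 35.7, 14.4 and 20.3% of all genes fell, and 4.95 to 28.6% with libraries left out. The interaction, with 0 calls, gave 12 without both libraries and 0 to 3 with libraries left out, all higher. Of all genes, 21.5% and 0.0389 to 6.52% were called higher there. The cause of these changes was not tested. Same-number libraries of experiment 2 correlated at 0.00947 to 0.78, not all above 0.1, so the block there is a setting and no pairing. Counts under about 15 in every library left 14 and 17 members untested, and a fall in them was not detectable at this depth.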
